A study of Homo sapiens with 9 samples.

Results

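The genes described here fold, import, process and degrade proteins in the endoplasmic reticulum (ER), and include XBP1, ATF6 and ERN1 of its stress response. They are 39 of the 56541 genes in the deposited table, chosen as those whose symbol is on a list of members, and each symbol stood on 1 row. By role they are 8 chaperones with their cofactors, 5 disulfide isomerases and related genes, 2 lectin chaperones, 10 genes of ER degradation, 3 sensors, 8 genes of the SEC61 channel and the TRAP complex, and 3 signal peptidase genes. RNA came from MOLM-13, a human acute myeloid leukaemia line, in 9 libraries. All cells received doxycycline at 200 ng/µL for 4 days. The shCONTROL group (3 RNA-seq libraries) carried a control hairpin, and the shBCLAF1 group (3 RNA-seq libraries) carried a hairpin against BCLAF1, a nuclear protein linked to RNA processing. The RIP group (3 libraries) held RNA that came down with BCLAF1 when it was precipitated from cells with the control hairpin, with more cells collected per sample than for RNA-seq. No mock precipitation is named in the labels, so the shCONTROL RNA-seq was the reference for the RIP. All libraries were treated here as 1 batch. The labels do not say whether a hairpin line is 1 clone or whether replicates were separate cultures, so the p-values measure only the spread between these libraries.

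Proteins bound for the secretory pathway enter the ER through the SEC61 channel, lose their signal peptide, and fold with the help of BiP (HSPA5), its J-domain partners, disulfide isomerases and the sugar-binding calnexin cycle. Proteins that fail to fold are drawn back into the cytosol by the SEL1L-SYVN1 complex and degraded. When unfolded proteins build up, IRE1 (ERN1) splices XBP1 mRNA, ATF6 is cleaved to a transcription factor, and PERK raises translation of ATF4, together the unfolded protein response. Both XBP1 and ATF6 act on ER genes through short promoter elements.

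Library totals ran from 25819144 to 36635268 estimated counts, and a floor of 3 counts corresponded to 0.0789 to 0.118 CPM (counts scaled to library size, with TMM, a correction for library composition). BCLAF1 itself measured 325, 328 and 312 CPM in shCONTROL and 115, 125 and 100 CPM in shBCLAF1 (fitted log2 fold change -1.50 ± 0.085 SE, adjusted p = 0.000206, edgeR). The 10 markers listed for myeloid leukaemia cells all stood above 1 CPM in every RNA-seq library. Their summed level was 1580 to 1667 CPM in shCONTROL and 3443 to 3859 CPM in shBCLAF1, and 5 of the 10 rose and 1 fell. LYZ, the lysozyme gene, made up most of that difference, at 785, 671 and 731 CPM in shCONTROL and 2819, 2665 and 2434 CPM in shBCLAF1, and the other 9 markers summed to 882 to 927 CPM in shCONTROL and 951 to 1040.2 CPM in shBCLAF1. The part of these markers in the results below was not tested. Of the T-cell markers CD3E, CD3G and CD2 were at 0 in the RNA-seq libraries, while CD3D measured 11.0, 11.5 and 11.9 CPM in shCONTROL and 10.9, 9.41 and 7.80 CPM in shBCLAF1, and TRAC measured 24.0, 27.7 and 25.2 CPM in shCONTROL and 14.8, 12.7 and 11.4 CPM in shBCLAF1 and was the 1 T-cell marker called lower. Of the B- and plasma-cell markers 4 of 6 were at 0 there, as were the erythroid markers HBA1, HBA2, HBB and ALAS2. Of 5 genes listed as epithelial and stromal markers EPCAM, COL1A1 and COL1A2 were at 0. KRT8 was at 0 in shCONTROL, measured 0, 1.38 and 1.50 CPM in shBCLAF1, and was not tested. PECAM1, the only one tested, is not specific to epithelial or stromal cells, so its level does not mark them. It measured 185, 194 and 182 CPM in shCONTROL and 256, 242 and 213 CPM in shBCLAF1 and rose. In bulk samples, fewer cells of a type cannot be told apart from less RNA per cell. Of the 39 genes, 38 were tested in both comparisons. DERL3, a derlin of ER degradation, had 19 counts in shCONTROL replicate 1 and 0 in the other libraries, and was not tested. CPM is not divided by transcript length, so levels are compared between libraries and never between genes.

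Promoter windows from RefSeq (GRCh38.p14, 250 bases before an annotated start) were found for 35 of the 39 genes and not for DERL1, DERL3, PDIA3 and SPCS1. Of the 35, 7 had more than 1 window, and any gene, member or not, counted as matched if any of its windows matched. CANX, PDIA6, SSR3, SSR4 and XBP1 also had windows without a match. The matched windows of CANX, PDIA6, SSR3 and SSR4 lie within the annotated gene. The number of windows per gene was not matched between members and all genes. The ER stress response element (ERSE), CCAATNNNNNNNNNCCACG, was searched on both strands and stood in 7 of the 35, or 20.0%, against 25 of 27305 genes with a window, or 0.0916%. Its second form (ERSE-II), ATTGGNCCACG, stood in 3 of 35, or 8.57%, against 0.0659% of all genes. The XBP1 element, TGACGTGG or TGACGTGA, stood in 3 of 35 against 1.22%, and 1 of the 3, in HYOU1, overlaps an ERSE-II. Among the 9944 genes with a window that were tested in the knock-down, the shares were 0.151% (ERSE), 0.111% (ERSE-II) and 1.49% (XBP1 element). Several of these genes are textbook cases from which the elements were defined. The sites are printed because they mark the genes best known as stress-response targets, 5′ to 3′ in the direction of the element, with 6 flanking bases and the fixed letters of the element in capitals. The first 8 lines are ERSE matches and the last 4 are ERSE-II matches.
HSPA5: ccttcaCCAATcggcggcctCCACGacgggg
HSP90B1, distal: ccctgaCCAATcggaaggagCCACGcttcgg
HSP90B1, proximal: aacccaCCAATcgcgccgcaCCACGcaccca
CALR: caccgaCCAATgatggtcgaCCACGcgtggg
CANX: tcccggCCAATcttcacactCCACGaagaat
PDIA6: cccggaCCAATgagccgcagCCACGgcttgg
CRELD2: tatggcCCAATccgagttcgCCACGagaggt
XBP1: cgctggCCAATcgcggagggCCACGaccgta
HERPUD1: acgccgATTGGgCCACGttggga
SDF2L1: gttttgATTGGtCCACGcttccg
HYOU1, proximal: gtactcATTGGaCCACGtcccag
HYOU1, distal: cctgggATTGGaCCACGtcacgg

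The whole windows of 4 genes that behaved differently after knock-down are shown for context, on the strand of the gene, with the match and the bases inside it in capitals. They are HSPA5 (chr9:125241344-125241593, minus strand), CALR (chr19:12938359-12938608, plus strand), XBP1 (chr22:28800570-28800819, minus strand) and HERPUD1 (chr16:56931892-56932141, plus strand). For XBP1, which had more than 1 window, the window with the match is shown. CALR reads in reverse, since its match lies on the other strand.
HSPA5: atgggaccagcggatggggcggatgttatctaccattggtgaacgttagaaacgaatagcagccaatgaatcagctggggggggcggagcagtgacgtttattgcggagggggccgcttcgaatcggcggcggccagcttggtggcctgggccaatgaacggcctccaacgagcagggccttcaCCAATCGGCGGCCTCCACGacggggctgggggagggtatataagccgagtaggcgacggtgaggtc
CALR: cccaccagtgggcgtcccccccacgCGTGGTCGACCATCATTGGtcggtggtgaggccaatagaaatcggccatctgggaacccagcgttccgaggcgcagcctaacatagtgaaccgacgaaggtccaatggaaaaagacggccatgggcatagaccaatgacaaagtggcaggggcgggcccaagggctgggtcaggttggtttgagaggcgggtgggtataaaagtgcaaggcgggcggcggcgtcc
XBP1: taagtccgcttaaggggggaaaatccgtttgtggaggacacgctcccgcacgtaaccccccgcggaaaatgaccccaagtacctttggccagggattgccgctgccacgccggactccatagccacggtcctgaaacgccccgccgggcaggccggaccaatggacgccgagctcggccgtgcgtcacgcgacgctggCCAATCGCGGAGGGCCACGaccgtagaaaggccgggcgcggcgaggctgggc
HERPUD1: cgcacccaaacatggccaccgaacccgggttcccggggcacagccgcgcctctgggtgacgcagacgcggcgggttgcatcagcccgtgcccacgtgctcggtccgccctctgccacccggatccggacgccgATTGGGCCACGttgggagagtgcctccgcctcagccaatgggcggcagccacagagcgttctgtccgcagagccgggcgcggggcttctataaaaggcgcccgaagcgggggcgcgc

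In the knock-down comparison, which asks what changes when BCLAF1 is depleted, 17 of the 38 ER genes rose and 6 fell. Those that rose included 4 of 8 chaperones and cofactors, 3 of 5 disulfide isomerases and related genes, 1 of 2 lectin chaperones and 5 of 9 tested degradation genes, led by CRELD2, DNAJC3, SDF2L1, CALR and OS9, while HERPUD1, XBP1, EDEM1, SEC61A1, SSR3 and CANX fell. The 17 make 44.7% of the tested members, beside 15.5% of all 16961 genes tested, and the 6 make 15.8%, beside 16.9% of all genes (adjusted p under 0.05 by edgeR's quasi-likelihood test, Benjamini-Hochberg over all genes). The share that fell is close to that of all genes. The members were chosen with earlier results of these data known, and in neither comparison was the background matched for expression level. The median log2 fold change was 0.14 over the 38 genes and 0.017 over all genes, and 28 of the 38 were above 0. The changes were modest: CRELD2 alone reached a log2 fold change of 1. A single fit of all 9 libraries called 6 higher and 4 lower, and called 1129 and 1318 among all genes. The calls it dropped were HSP90B1, DNAJB11, PDIA3, PDIA6, CALR, CANX, SYVN1, EDEM1, DERL2, OS9, ERN1, SSR4 and SPCS3.

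**Figure D1:**
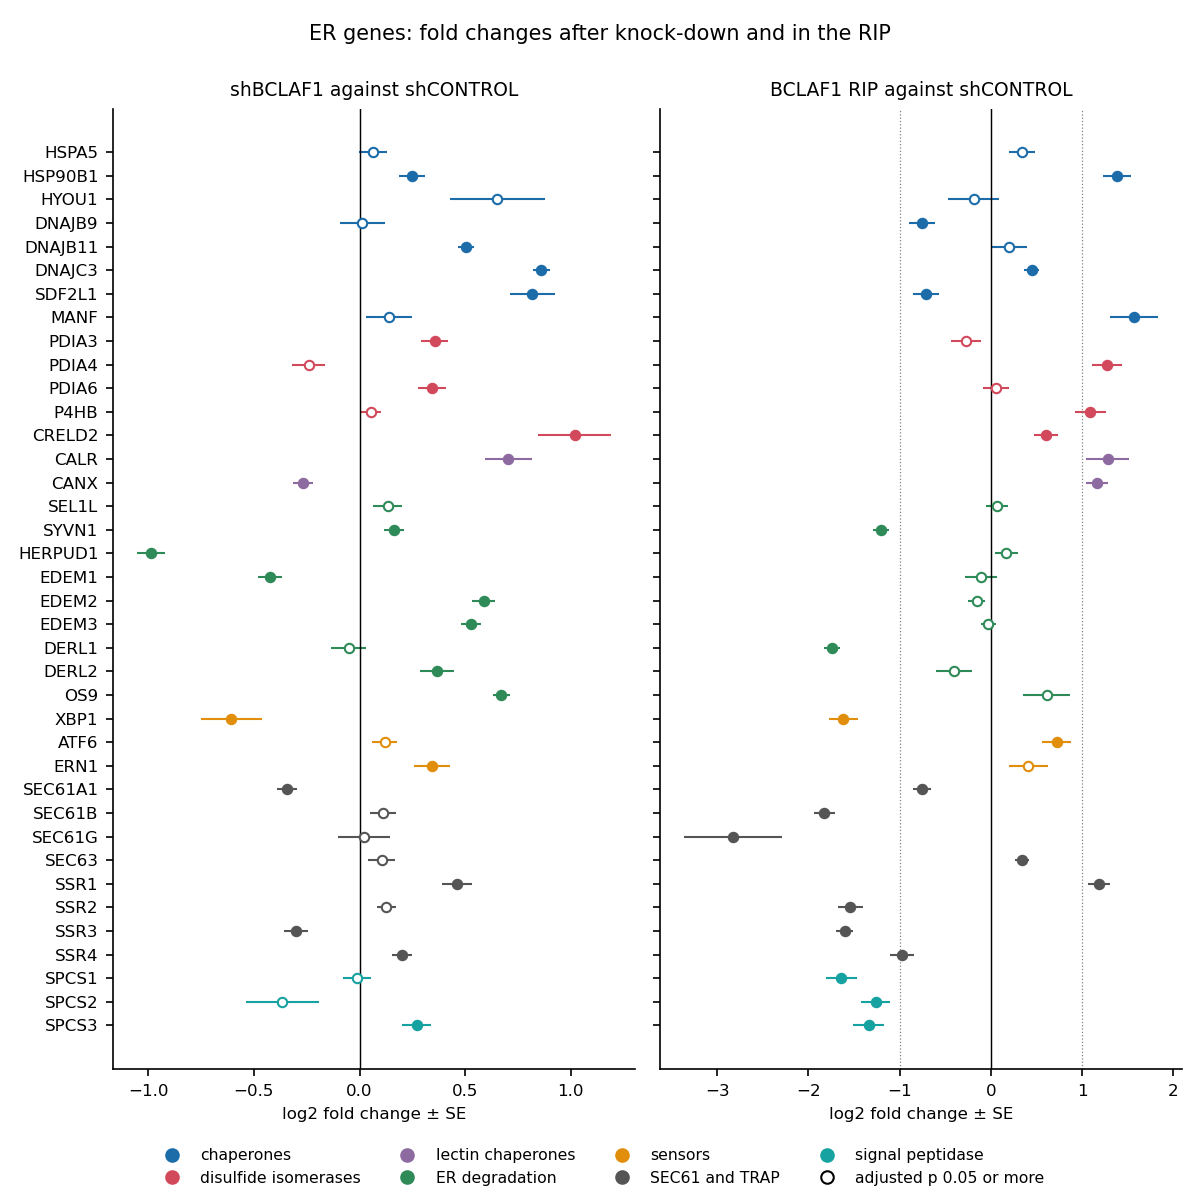
Log2 fold changes ± SE of the 38 tested ER genes after BCLAF1 knock-down (left) and in the BCLAF1 RIP (right), each against 3 shCONTROL libraries, ordered and coloured by role; filled points have an adjusted p under 0.05 and dotted lines mark a log2 value of -1 and 1. After knock-down 17 genes lie filled to the right of 0 and 6 to the left, and in the RIP the SEC61, TRAP and signal peptidase genes lie mostly to the left.

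Of the 8 chaperones and cofactors, 4 rose in the knock-down and 4 did not pass. DNAJC3 (P58IPK), a J-domain cofactor of BiP that also inhibits PERK, measured 149, 148 and 142 CPM in shCONTROL and 273, 266 and 256 CPM in shBCLAF1. That is a 1.81-fold rise with no overlap between groups (log2 fold change 0.86 ± 0.04 SE, adjusted p = 0.000141). The DNAJC3 locus overlaps MTCYBP3, MTND5P2 and MTND6P18. SDF2L1, which works with J-domain proteins in the ER lumen, measured 21.0, 17.3 and 22.3 CPM in shCONTROL and 34.6, 34.3 and 37.6 CPM in shBCLAF1. All shBCLAF1 libraries lay above all shCONTROL libraries (log2 fold change 0.82 ± 0.11 SE, adjusted p = 0.00229). DNAJB11, another J-domain cofactor of BiP, measured 52.9, 50.8 and 52.9 CPM in shCONTROL and 73.0, 73.5 and 75.3 CPM in shBCLAF1, and its replicates lay close together (log2 fold change 0.50 ± 0.038 SE, adjusted p = 0.000427). The fit of all 9 libraries gave DNAJB11 an adjusted p of 0.0931.

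The 2 main chaperones of the lumen differed little between the groups. HSPA5 encodes BiP, the HSP70 of the ER (chr9:125234853-125241343). It measured 439, 371 and 426 CPM in shCONTROL and 439, 424 and 426 CPM in shBCLAF1, and the groups overlapped (log2 fold change 0.065 ± 0.067 SE, adjusted p = 0.522). The 95% interval of its log2 fold change was -0.10 to 0.23. HSP90B1, the HSP90 of the ER (GRP94), measured 546, 474 and 547 CPM in shCONTROL and 628, 621 and 606 CPM in shBCLAF1, a 1.19-fold rise (log2 fold change 0.25 ± 0.063 SE, adjusted p = 0.0273). Its call was lost without any 1 of the shBCLAF1 replicates 1, 2 and 3 (adjusted p 0.0503 to 0.0815), and it held in 7 of its 12 alternatives.

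HYOU1 (GRP170), which helps BiP exchange its nucleotide, measured 162, 86.8 and 146 CPM in shCONTROL and 213, 216 and 191 CPM in shBCLAF1. It did not pass the test (log2 fold change 0.65 ± 0.22 SE, adjusted p = 0.0719), although the groups do not overlap. shCONTROL replicate 2 was far below the other controls, and without it the log2 fold change was 0.43 and the adjusted p 0.0174, and DESeq2 on all 6 libraries gave an adjusted p of 0.00515. The antisense gene HYOU1-AS1 overlaps it, and whether counting used strand is not given in the sources used here. shCONTROL replicate 2 was also the lowest of its group for HSPA5, HSP90B1, SDF2L1, MANF, CALR, CANX, CRELD2 and all 4 disulfide isomerases, though for DNAJC3, OS9 and EDEM2 the 3 control libraries lay close together. DNAJB9 (ERdj4), a J-domain protein that dampens IRE1, had a log2 fold change of 0.014 (adjusted p = 0.941), and MANF, a secreted stress-induced factor, one of 0.14 (adjusted p = 0.387).

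Of the 5 disulfide isomerases and related genes, 3 rose. CRELD2, a secreted cysteine-rich ER stress gene, measured 12.9, 11.9 and 15.4 CPM in shCONTROL and 22.5, 25.5 and 33.3 CPM in shBCLAF1. Its fold of 2.03 was the largest rise among the 38 genes (log2 fold change 1.02 ± 0.17 SE, adjusted p = 0.00631), with shBCLAF1 replicate 3 the highest library. PDIA3 (ERp57), the isomerase that works with the lectin chaperones, measured 169, 168 and 192 CPM in shCONTROL and 216, 226 and 232 CPM in shBCLAF1 (fitted log2 fold change 0.36 ± 0.063 SE, adjusted p = 0.00764). Its processed pseudogene PDIA3P1 held 10782 counts over the 9 libraries beside 55970 for PDIA3, and the gene overlaps ELL3, so part of its counts is uncertain. PDIA6 (P5), which overlaps ATP6V1C2, rose with a log2 fold change of 0.34 (adjusted p = 0.0109). P4HB, the archetype of the isomerases, had a log2 fold change of 0.053 (adjusted p = 0.461). PDIA4 (ERp72) had one of -0.24 (adjusted p = 0.0621), which passed without shCONTROL replicate 2 (0.0119) and with DESeq2 (0.0171). The fit of all 9 libraries gave an adjusted p of 0.157 for PDIA3 and 0.127 for PDIA6.

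The 2 lectin chaperones, which hold glycoproteins during folding, moved in opposite directions. Calreticulin (CALR, chr19:12938609-12944489), the soluble one, measured 978, 746 and 986 CPM in shCONTROL and 1469, 1407 and 1527 CPM in shBCLAF1, and the groups did not overlap (log2 fold change 0.70 ± 0.11 SE, adjusted p = 0.00498). Calnexin (CANX), its membrane-bound relative, measured 1059, 981 and 1014 CPM in shCONTROL and 874, 847 and 809 CPM in shBCLAF1, with every shBCLAF1 library under every control (log2 fold change -0.27 ± 0.046 SE, adjusted p = 0.00679). With 1 fit of all 9 libraries the adjusted p was 0.0536 for CALR and 0.109 for CANX. The CANX locus overlaps CBY3 and HMGB3P22.

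**Figure D2:**
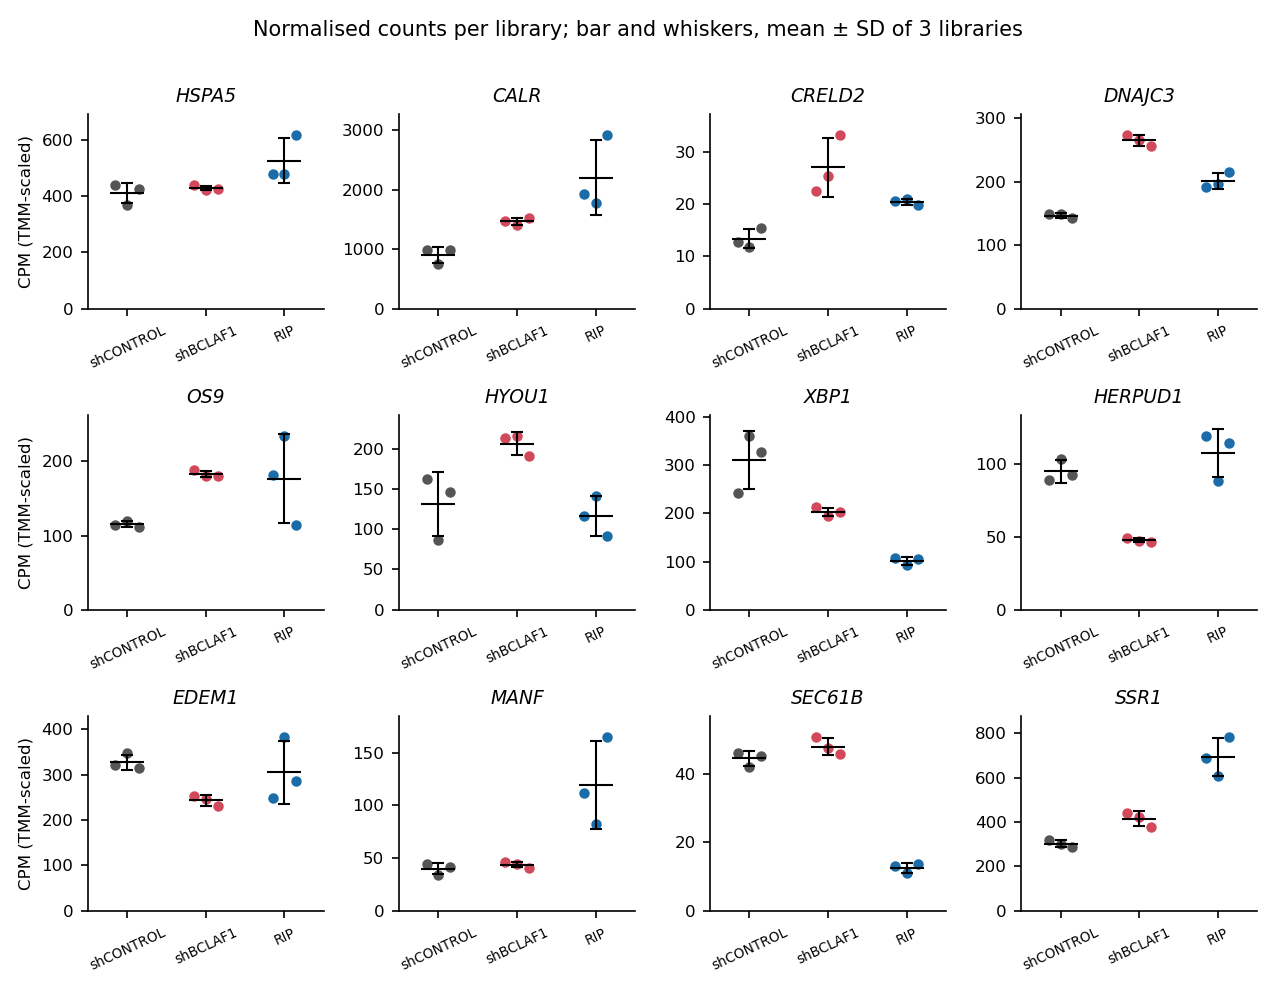
TMM-scaled CPM of 12 ER genes in each of the 3 shCONTROL, 3 shBCLAF1 and 3 RIP libraries (points), with the mean ± SD of 3 libraries (bar and whiskers); each panel has its own linear axis from 0. DNAJC3 and OS9 separate cleanly after knock-down, HYOU1 shows the low shCONTROL replicate 2, XBP1 the low shCONTROL replicate 1, and SEC61B lies lowest in the RIP.

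Among the 9 tested genes of ER degradation, 5 rose and 2 fell. HERPUD1 (Herp, chr16:56932142-56944864), a stress-induced membrane scaffold of the SYVN1 complex, measured 89.1, 104 and 92.2 CPM in shCONTROL and 49.2, 47.5 and 46.5 CPM in shBCLAF1. It was the largest fall among the 38 genes, 1.98-fold, with the groups far apart (log2 fold change -0.99 ± 0.067 SE, adjusted p = 0.000313), and the call held in 12 of its 12 alternatives. OS9, the lectin that hands misfolded glycoproteins to SEL1L, measured 115, 119 and 112 CPM in shCONTROL and 188, 181 and 181 CPM in shBCLAF1, a 1.59-fold rise (log2 fold change 0.67 ± 0.04 SE, adjusted p = 0.000236). The fit of all 9 libraries gave OS9 an adjusted p of 0.0802.

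The 3 EDEM genes, which trim mannose from glycoproteins that are to be degraded, did not move together. EDEM1 measured 320.2, 346 and 314 CPM in shCONTROL and 253, 246 and 229.9 CPM in shBCLAF1 and fell (log2 fold change -0.42 ± 0.056 SE, adjusted p = 0.00262). EDEM2 measured 27.5, 25.9 and 26.7 CPM in shCONTROL and 42.0, 38.8 and 39.5 CPM in shBCLAF1 and rose 1.50-fold (log2 fold change 0.59 ± 0.055 SE, adjusted p = 0.000768). EDEM3 measured 263, 251 and 250.03 CPM in shCONTROL and 378, 375 and 345 CPM in shBCLAF1 and rose 1.44-fold (log2 fold change 0.53 ± 0.048 SE, adjusted p = 0.000688). None of the 3 had overlapping groups. EDEM2 shares its locus with the read-through gene MMP24-AS1-EDEM2, so its counts are uncertain. The EDEM1 call was absent from the fit of all 9 libraries (adjusted p = 0.0992), and those of EDEM2 and EDEM3 each held in 12 of its 12 alternatives.

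DERL2, a derlin of the retrotranslocation channel, measured 29.6, 29.8 and 28.9 CPM in shCONTROL and 41.3, 38.2 and 34.0 CPM in shBCLAF1 (fitted log2 fold change 0.37 ± 0.079 SE, adjusted p = 0.0155). Its call was lost without shBCLAF1 replicate 2 (adjusted p = 0.0543) and in the fit of all 9 libraries (0.239), and it overlaps MIS12. SYVN1 (HRD1), the ubiquitin ligase, rose by a log2 fold change of 0.16 (adjusted p = 0.0476), and passed in 4 of its 12 alternatives. Its call did not survive leaving out shCONTROL replicate 1 or 2, or any of the 3 shBCLAF1 replicates (adjusted p 0.055 to 0.139). Its partner SEL1L had a log2 fold change of 0.13 (adjusted p = 0.195, and 0.0279 without shBCLAF1 replicate 3). DERL1 had one of -0.052 (adjusted p = 0.691).

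Of the 3 sensor genes, XBP1 fell, ERN1 rose, and ATF6 did not pass. XBP1 (chr22:28794560-28800569), the transcription factor made from the mRNA that IRE1 splices, measured 243, 360.2 and 328 CPM in shCONTROL and 212, 195 and 202 CPM in shBCLAF1. Every shBCLAF1 library lay under every control, and shCONTROL replicate 1 was the lowest control (log2 fold change -0.61 ± 0.14 SE, adjusted p = 0.0213). The direction held in every alternative, but the call was lost in each fit without shCONTROL replicate 2 or 3 or without shBCLAF1 replicate 1, 2 or 3 (adjusted p 0.0513 to 0.0732). These counts are per gene and do not tell spliced from unspliced XBP1. ERN1, which encodes IRE1, measured 24.1, 26.2 and 22.0 CPM in shCONTROL and 31.6, 31.3 and 28.6 CPM in shBCLAF1 (fitted log2 fold change 0.34 ± 0.084 SE, adjusted p = 0.024). The ERN1 call was lost without shCONTROL replicate 1 or 3 and without shBCLAF1 replicate 1 or 2 (adjusted p 0.0561 to 0.0803), and in the fit of all 9 libraries (0.285). ATF6, the membrane-bound factor that is cleaved under stress, measured 114, 121 and 117 CPM in shCONTROL and 132, 132 and 118 CPM in shBCLAF1, and the groups overlapped (log2 fold change 0.12 ± 0.058 SE, adjusted p = 0.177). It passed without shBCLAF1 replicate 3 (adjusted p = 0.0237) and with total counts in place of TMM (0.0474).

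Among the 8 genes of the SEC61 channel and TRAP (the translocon-associated protein complex), 2 rose and 2 fell. SSR1, the alpha subunit of TRAP, measured 320.4, 301 and 286 CPM in shCONTROL and 443, 424 and 378 CPM in shBCLAF1, a 1.38-fold rise with no overlap (log2 fold change 0.46 ± 0.072 SE, adjusted p = 0.00475). SSR3, the gamma subunit, fell, with a log2 fold change of -0.30 (adjusted p = 0.00989). SSR4, the delta subunit, which overlaps IDH3G, rose by 0.20 (adjusted p = 0.0206), and SSR2, the beta subunit, had a log2 fold change of 0.13 (adjusted p = 0.0814, and 0.0216 with total counts). The SSR4 call was lost without any of the 3 shCONTROL replicates or without shBCLAF1 replicate 1 (adjusted p 0.053 to 0.0667). SEC61A1, the pore of the channel, fell, with a log2 fold change of -0.34 (adjusted p = 0.00319), and passed in 12 of its 12 alternatives. It overlaps RUVBL1. The small channel subunits SEC61B and SEC61G and the auxiliary SEC63 had log2 fold changes of 0.11, 0.02 and 0.10 (adjusted p = 0.221, 0.923 and 0.263). SEC63 passed without shBCLAF1 replicate 3 (adjusted p = 0.0188).

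Of the 3 signal peptidase genes, SPCS3 rose by a log2 fold change of 0.27 (adjusted p = 0.0258), a call lost without shCONTROL replicate 2 or 3 or shBCLAF1 replicate 1 or 2 (adjusted p 0.071 to 0.0852). SPCS1 had a log2 fold change of -0.012 (adjusted p = 0.911) and SPCS2 one of -0.37 (adjusted p = 0.163). The 4 pseudogenes of SPCS2 held 3271 counts over the 9 libraries, more than the 3061 of SPCS2 itself, so its level is uncertain in every comparison.

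Genes that carry an ERSE did not share a direction after knock-down. Of the 7, CALR, CRELD2, HSP90B1 and PDIA6 rose, XBP1 and CANX fell, and HSPA5 did not pass, and their median was 0.25 on the log2 scale, between -0.61 and 1.02. Among the 3 with an ERSE-II, SDF2L1 rose, HERPUD1 fell and HYOU1 did not pass. Of the 12 genes with any of the 3 elements, 6 rose and 4 fell (median 0.22), and of the 23 without, 10 rose and 2 fell (median 0.13). A letter match is a description of the window and no evidence that a factor binds there, and these counts carry no test.

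The rest of the pathway, from lists written with the members, was counted in the same way in the knock-down. Among all genes tested, 15.5% rose and 16.9% fell. Of 32 tested genes for other ER folding and glycan processing, 8 rose and 4 fell (median log2 fold change 0.093). Of 25 other ER degradation genes, 6 rose and 5 fell (median 0.067). Of 43 other translocation, membrane insertion and oligosaccharyltransferase genes, 5 rose and 7 fell (median 0.055). Of 8 other sensors and their processing enzymes, 3 rose and 2 fell (median 0.089).

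Of the genes listed for the PERK-ATF4 arm, 11 of 11 were lower, beside 16.9% of all genes tested in the knock-down. Their median was -1.84 on the log2 scale, and 9 were at -1 or less. Whether PERK plays a part in these values was not tested. ATF4 itself measured 559.99, 572 and 545 CPM in shCONTROL and 298, 268 and 289 CPM in shBCLAF1 (fitted log2 fold change -0.97 ± 0.049 SE, adjusted p = 0.000164). Its targets SESN2, a stress-induced regulator of growth signalling, and STC2, a secreted glycoprotein, had log2 fold changes of -2.04 and -4.56 (adjusted p = 7.97e-05 and 8.17e-05). Several genes of this list were already known to fall in these libraries when the list was written, so it is not independent evidence of the direction. Among the members with the same direction, HERPUD1 (log2 fold change -0.99) and XBP1 (-0.61) are the lowest.

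**Figure D3:**
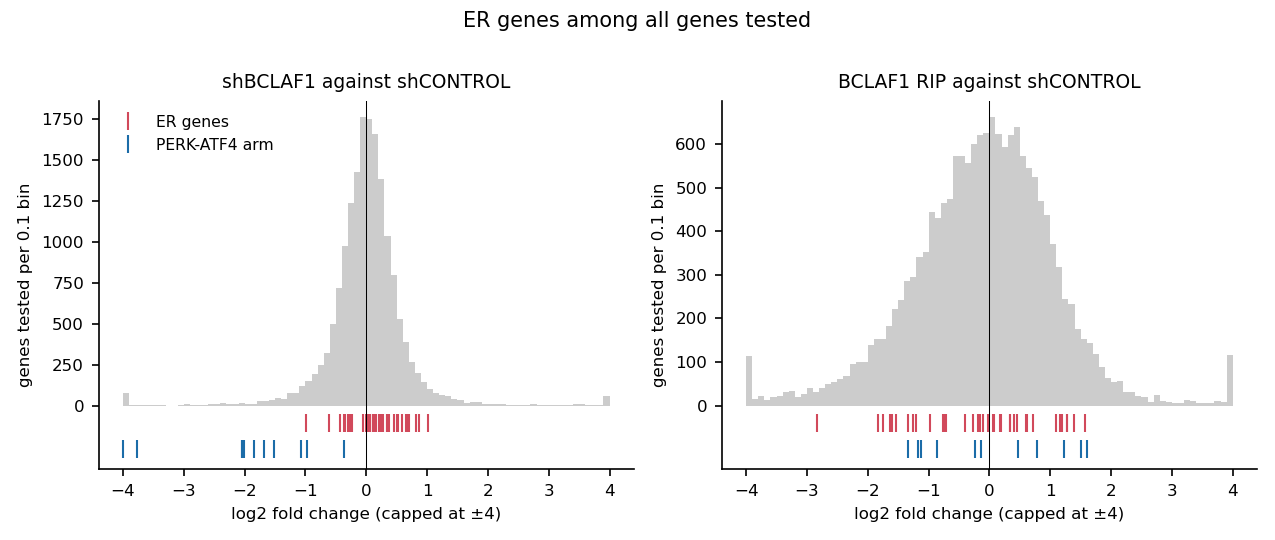
Histograms of the log2 fold changes of all genes tested after knock-down (16961 genes, left) and in the RIP (16727 genes, right), in bins of 0.1 and capped at 4 in size, with ticks for the 38 ER genes (red) and the 11 genes of the PERK-ATF4 arm (blue). After knock-down the red ticks run from -0.99 to 1.02 around a median of 0.14, and the blue ticks lie to the left with a median of -1.84.

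The RIP libraries were set against RNA-seq of shCONTROL cells to see which transcripts came down with BCLAF1 more than their level in the cell accounts for. Transcripts of several chaperones (MANF, HSP90B1, CALR, PDIA4, CANX and P4HB) and of SSR1 were enriched, and those of SEC61B, SEC61G, SSR2 and SSR3 (4 of the 8 channel and TRAP genes) and of all 3 signal peptidase genes were depleted. Of the 38 ER genes, 11 were higher (28.9%) and 14 lower (36.8%), beside 24.6% higher and 24.7% lower among the 16727 genes tested (adjusted p under 0.05, edgeR). Counting only those that also differed by 1 or more on the log2 scale, 7 were enriched (18.4%, beside 11.0% of all genes) and 10 depleted (26.3%, beside 13.5%). The median log2 fold change was -0.068, and it was -0.049 over all genes. edgeR's stricter test, with a change of 1 as its null, called 0 of the 7 enriched and 7 of the 10 depleted genes, beside 732 and 1142 of all genes, and at an unadjusted p under 0.05 it gave 6 higher and 10 lower members. Mitochondrially encoded mRNAs were lower in the RIP for 13 of 13 genes, with a summed level of 25494 to 28474 CPM in shCONTROL and 2178 to 3645 CPM in the RIP. Of 4 tested nuclear-retained RNAs 1 was lower and 3 did not pass. Whether the make-up of the recovered RNA plays a part in the values below was not tested.

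**Figure D4:**
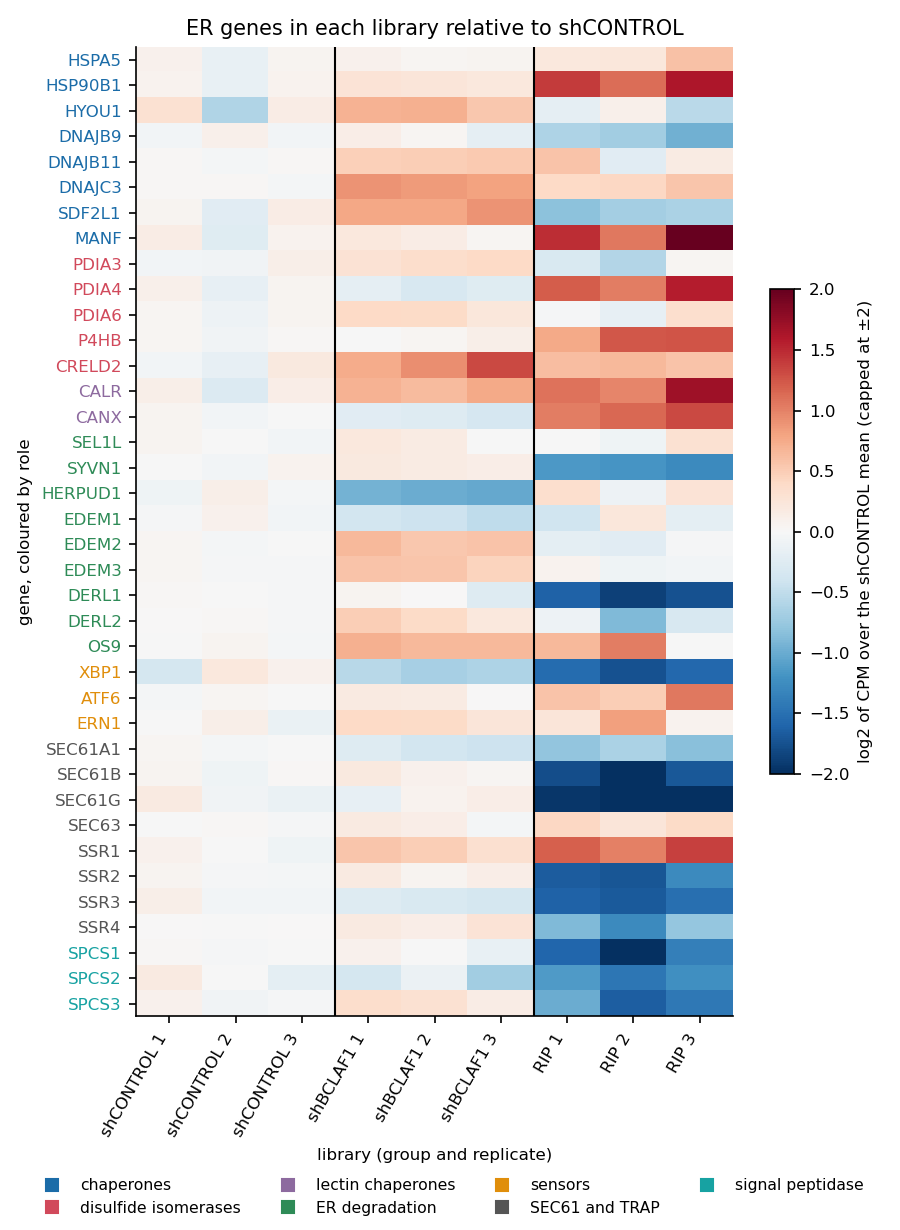
Log2 of CPM over the shCONTROL mean for the 38 tested ER genes (rows, coloured and ordered by role) in each of the 9 libraries (columns), capped at 2 in size. The RIP columns are red for HSP90B1, MANF, PDIA4, P4HB, CALR, CANX and SSR1 and blue for most SEC61, TRAP and signal peptidase genes, while the shBCLAF1 columns are paler.

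Of the 8 chaperones and cofactors, HSP90B1, MANF and DNAJC3 were higher in the RIP and DNAJB9 and SDF2L1 lower. MANF measured 44.0, 33.9 and 41.7 CPM in shCONTROL and 111, 82.6 and 165 CPM in the RIP, and RIP replicate 3 was the highest (log2 fold change 1.57 ± 0.26 SE, adjusted p = 0.00396). HSP90B1 measured 546, 474 and 547 CPM in shCONTROL and 1384, 1132 and 1595 CPM in the RIP, a 2.61-fold difference with no overlap (log2 fold change 1.38 ± 0.16 SE, adjusted p = 0.001). HSPA5 measured 479, 481 and 619 CPM in the RIP beside 439, 371 and 426 CPM in shCONTROL. Its groups did not overlap, but it did not pass (log2 fold change 0.34 ± 0.14 SE, adjusted p = 0.0906, 95% interval -0.0012 to 0.69). DESeq2 and the fit of all 9 libraries gave HSPA5 adjusted p-values of 0.0453 and 0.0343. The log2 fold change was 0.45 for DNAJC3, -0.75 for DNAJB9 and -0.71 for SDF2L1, and 0.20 for DNAJB11 and -0.19 for HYOU1, which did not pass (adjusted p = 0.429 and 0.599).

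Both lectin chaperones and 2 of the 5 disulfide isomerase genes were enriched. The log2 fold changes in the RIP were 1.28 for CALR, 1.16 for CANX, 1.28 for PDIA4 and 1.09 for P4HB (adjusted p = 0.00571, 0.00084, 0.00162 and 0.00305). CALR stood at 1922, 1775 and 2923 CPM in the RIP libraries and CANX at 2071, 2262 and 2538 CPM. CRELD2 was higher without reaching the minimum (0.60, adjusted p = 0.0104). PDIA6 had a log2 fold change of 0.054 and PDIA3 one of -0.27 (adjusted p = 0.775 and 0.22), and PDIA3 passed as lower without RIP replicate 3 (0.0311). RIP replicate 3 was the highest RIP library for all 7 enriched genes, and without it the same count of 7 was enriched.

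Among the 9 tested ER degradation genes 2 were depleted in the RIP and 7 did not pass. DERL1, a derlin of the retrotranslocation machinery, measured 162, 158 and 157 CPM in shCONTROL and 52.0, 43.5 and 47.6 CPM in the RIP, 3.35-fold less with no overlap (log2 fold change -1.74 ± 0.088 SE, adjusted p = 0.000204). SYVN1 had a log2 fold change of -1.21 (adjusted p = 0.000296). It overlaps MRPL49. OS9 stood at 182, 234 and 114 CPM in the RIP, with replicate 3 at the level of the controls (log2 fold change 0.61 ± 0.26 SE, adjusted p = 0.0948), and it passed without that library (0.00556), with DESeq2 (0.0327) and in the fit of all 9 libraries (0.0415). HERPUD1 had a log2 fold change of 0.17 and EDEM1 one of -0.11 (adjusted p = 0.314 and 0.648). Without RIP replicate 2 the first was called higher and the second lower (adjusted p = 0.0382 and 0.0423). SEL1L, EDEM2, EDEM3 and DERL2 had log2 fold changes of 0.069, -0.16, -0.03 and -0.40 and did not pass.

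The sensors differed in the RIP. XBP1 measured 243, 360.2 and 328 CPM in shCONTROL and 107, 92.7 and 105 CPM in the RIP, 3.07-fold less, and it passed in 12 of its 12 alternatives (log2 fold change -1.62 ± 0.16 SE, adjusted p = 0.000673). ATF6 was higher, at 174, 164 and 245 CPM in the RIP beside 114, 121 and 117 CPM in shCONTROL (log2 fold change 0.72 ± 0.16 SE, adjusted p = 0.0119), with an adjusted p of 0.05004 without shCONTROL replicate 1, just over the threshold. ERN1 stood at 28.4, 42.7 and 25.3 CPM in the RIP and did not pass (log2 fold change 0.41 ± 0.22 SE, adjusted p = 0.166).

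Of the 8 channel and TRAP genes, 6 were lower in the RIP and 2 higher, and all 3 signal peptidase genes were depleted. SEC61G, the gamma subunit of the channel, measured 17.3, 14.5 and 13.8 CPM in shCONTROL and 3.93, 1.45 and 0.937 CPM in the RIP. It was the lowest of the 38 genes in the RIP, 7.10-fold less, with RIP replicate 1 the highest of the 3 (log2 fold change -2.83 ± 0.54 SE, adjusted p = 0.006), and its log2 fold change was -3.60 to -2.48 with 1 library left out. SEC61B, the beta subunit, measured 46.1, 42.0 and 45.3 CPM in shCONTROL and 12.9, 11.0 and 13.7 CPM in the RIP (log2 fold change -1.83 ± 0.11 SE, adjusted p = 0.000242). SSR3 measured 205, 183 and 182 CPM in shCONTROL and 61.8, 59.6 and 67.0 CPM in the RIP (log2 fold change -1.60 ± 0.093 SE, adjusted p = 0.000224), and SSR2 measured 238, 224 and 222 CPM in shCONTROL and 72.0, 69.7 and 94.7 CPM in the RIP (log2 fold change -1.54 ± 0.14 SE, adjusted p = 0.0005). None of these groups overlapped, and each call held in 12 of 12 alternatives.

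SSR1 went the other way from its TRAP partners, at 691, 609.8 and 782 CPM in the RIP beside 320.4, 301 and 286 CPM in shCONTROL (log2 fold change 1.19 ± 0.12 SE, adjusted p = 0.000713). SSR4 and SEC61A1 were lower without reaching the minimum (-0.97 and -0.76, adjusted p = 0.00187 and 0.00144). SEC63 was higher (0.34, adjusted p = 0.0141), a call lost without any of the 3 shCONTROL replicates (adjusted p 0.06 to 0.0756) and with total counts (0.118). Its 2 pseudogenes held 3321 counts beside 65683 for SEC63.

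The signal peptidase subunit SPCS1, which overlaps NEK4, measured 69.3, 66.5 and 67.7 CPM in shCONTROL and 22.7, 16.5 and 26.4 CPM in the RIP (log2 fold change -1.64 ± 0.17 SE, adjusted p = 0.00078). SPCS3, another subunit, measured 253, 229 and 235 CPM in shCONTROL and 119.8, 76.3 and 88.7 CPM in the RIP (log2 fold change -1.34 ± 0.17 SE, adjusted p = 0.00159). SPCS2 had a log2 fold change of -1.26 (adjusted p = 0.00132), with the pseudogene limit given above. The summed level of the 3 genes was 309 to 338 CPM in shCONTROL, 334 to 387 CPM in shBCLAF1 and 97.8 to 149 CPM in the RIP, so the RIP range lay wholly under the others.

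The wider lists were counted in the RIP as well. Among all genes tested, 24.6% were higher and 24.7% lower, and 11.0% were enriched and 13.5% depleted. Of 43 other translocation, insertion and oligosaccharyltransferase genes, 27 were lower and 10 higher (median log2 fold change -0.73), and 18 were depleted against 1 enriched. Of 32 other folding genes, 10 were higher and 7 lower (median 0.12), and of 25 other ER degradation genes 8 were higher and 8 lower (median 0.084). Of 8 other sensors and processors 2 were higher and 3 lower (median -0.095), and of the 11 PERK-ATF4 genes 5 were higher and 4 lower (median -0.14). No test of the difference between lists was made.

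Both comparisons share the shCONTROL libraries, so their values are set side by side without an overlap count. Knock-down and RIP log2 fold changes were 0.70 and 1.28 for CALR, and -0.27 and 1.16 for CANX. They were 0.46 and 1.19 for SSR1, and -0.30 and -1.60 for SSR3. For XBP1 they were -0.61 and -1.62, and for HERPUD1 -0.99 and 0.17. For SPCS3 they were 0.27 and -1.34. For the other 4 enriched genes they were 0.25 and 1.38 (HSP90B1), 0.14 and 1.57 (MANF), -0.24 and 1.28 (PDIA4), and 0.053 and 1.09 (P4HB).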

How the data were processed

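Ribosomal RNA was removed and stranded paired-end libraries were sequenced, per the labels' protocols. The authors deposited 1 table of estimated counts (expected counts) per gene, without normalization. The submitters' processing notes name STAR 2.7.11b, StringTie 2.2.3 and the build hg38, with no role or order. All values are whole, so none was rounded. The 1 entry that names no gene (0 to 3.75% of a library's counts) was left out. Each comparison was fitted on its own 6 libraries with edgeR 4.0.16 in R 4.3.3: default low-count filter, TMM scaling, a prior count of 2, the quasi-likelihood F-test, and Benjamini-Hochberg adjustment over all genes (threshold 0.05). Enriched and depleted genes also had to differ by 1 or more on the log2 scale. The SE came from the coefficient and the square root of F. Intervals rest on the dispersion between the libraries of each fit and cover no variation beyond them, and floors cover counting only. Alternatives were DESeq2 1.42.0, total counts, relative log expression factors, no filter, 1 fit of all libraries, the replicate number as a block, 1 library left out, a minimum fold or a test against it, and the CCACG part of the promoter element alone. Gene positions and promoters are from RefSeq (GRCh38.p14), and all 39 symbols matched the gene name table. Values in every library were given for HSPA5, XBP1, ATF6 and ERN1, and for members past the threshold by size of log2 fold change, up to 14 after knock-down and 10 in the RIP. Values of HSP90B1, HYOU1, CANX, ATF4 and some RIP genes were added after they were seen. The members and lists were chosen with earlier results of these data known.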

Additional observations from a re-analysis of the deposited data

How the results depend on the processing

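Of 456 member values under alternatives in each comparison, 392 after knock-down and 435 in the RIP kept their direction and their side of the threshold. Members higher after knock-down numbered 17, and 12 to 18 with 1 library left out; those lower numbered 6, and 5 or 6. In the RIP 11 were higher (9 to 12 with 1 library left out) and 14 lower (14 or 15). A fit of all 9 libraries gave 6 members higher after knock-down, and 1129 of all genes higher and 1318 lower; the cause was not tested. A log2 fold change of at least 1 left 1 member higher and 0 lower, and 301 and 380 of all genes. In the RIP, the stricter null of a change of 1 left 0 members enriched (edgeR; 6 at an unadjusted p under 0.05), and 732 of all genes enriched and 1142 depleted. The CCACG letters alone stood in the windows of 77.1% of members, 37.5% of all genes and 51.5% of genes tested in the knock-down. BCLAF1 kept its direction and call in all 12 alternatives.

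The replicate number as a replicate block gave 15 members higher and 6 lower after knock-down, and 10 higher and 14 lower in the RIP. With it the knock-down calls of HSP90B1, SYVN1 and XBP1 (adjusted p = 0.052, 0.0968 and 0.0598) and the RIP call of SEC63 (0.0674) were lost, PDIA4 passed as lower after knock-down (0.0335), and no other member's call changed. Same-numbered deviations from the group means correlated at 0.026, 0.084 and 0.035 across genes for the knock-down. Each of these was the best for its library of shBCLAF1. For the RIP the same-numbered correlations were -0.023, 0.018 and 0.020. Correlations this weak do not settle whether equal numbers mark paired libraries. Total counts in place of TMM moved the median of all genes in the RIP from -0.049 to -0.16.

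Direction reversed for 8 members, none of which passed, with all libraries and TMM, in the comparison where it reversed. With 1 library left out, the knock-down value ran from -0.056 to 0.098 for DNAJB9, from -0.11 to 0.039 for DERL1, from -0.038 to 0.13 for SEC61G and from -0.067 to 0.048 for SPCS1 (0.038 with total counts). The RIP value ran from -0.018 to 0.37 for DNAJB11, from -0.095 to 0.15 for PDIA6, from -0.054 to 0.14 for SEL1L and from -0.31 to 0.028 for EDEM1, and was -0.061 for PDIA6 and -0.047 for SEL1L with total counts. SEC61G rested on few counts in the RIP, with 27 counts (0.937 CPM) in replicate 3, where 3 counts equal 0.104 CPM.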

Other observations

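The haemoglobin genes HBA1 and HBA2 were at 0 in all 6 RNA-seq libraries. HBA2 measured 39.1, 0 and 57.6 CPM in RIP replicates 1, 2 and 3, and HBA1 measured 2.60, 1.24 and 2.67 CPM. The erythroid markers HBB and ALAS2 were at 0 in every library. MALAT1, a nuclear-retained RNA, measured 7169.6, 8342 and 6627 CPM in shCONTROL and 3289, 4492 and 3965 CPM in shBCLAF1 (fitted log2 fold change -0.91 ± 0.14 SE, adjusted p = 0.00405, edgeR), and stood at 6473, 10072 and 6808 CPM in the RIP.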
